A study of Mus musculus with 13 samples.

Results

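The genes described here are 10 immediate early genes, Fos, Fosb, Fosl2, Junb, Egr1, Egr2, Egr4, Npas4, Nr4a1 and Arc, measured in the mouse hippocampus 3 days after pilocarpine-induced status epilepticus (SE). They were taken by symbol from the 45777 gene rows of the expression table, all 10 were found, and all 10 passed the filter on low counts in each comparison. RNA was sequenced from 13 hippocampal libraries in 4 groups, with 3 WT and 4 LIN28A-cKO mice among the sham animals (sham-WT, sham-cKO) and 3 of each genotype among the SE animals (SE-WT, SE-cKO). The question put to these genes is whether their transcripts still stood above sham 3 days after SE, and whether that depended on LIN28A, an RNA-binding protein.

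All mice carried Nestin-Cre, which drives recombination in neural progenitors and so in the neurons and macroglia that arise from them throughout the brain. WT mice were Nestin-Cre::Lin28a+/+ and LIN28A-cKO mice were Nestin-Cre::Lin28aloxP/loxP, both on a C57BL/6N background of 5 or more backcross generations. Mice of both sexes were injected at 6 weeks of age. SE mice received pilocarpine, a muscarinic agonist, at 260 mg/kg (males) or 280 mg/kg (females), and sham mice received saline. Scopolamine methyl nitrate (2 mg/kg) and terbutaline were given before pilocarpine, seizures were ended with diazepam (10 mg/kg) after 3 hours, and mice without SE were not used. Whether sham mice also received scopolamine, terbutaline or diazepam was not given in the sources used here, so SE and these agents cannot be told apart.

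Immediate early genes are transcribed within minutes of a burst of neuronal firing, without new protein synthesis, because calcium and kinase signals act on transcription factors already bound at their promoters. Their mRNAs are short-lived and usually return to baseline within hours, which is why they are used as markers of recent activity. Most of them encode transcription factors: the FOS and JUN proteins pair to form AP-1, the EGR proteins are zinc finger factors, NPAS4 is a neuron-specific factor that responds to calcium entry, and NR4A1 is an orphan nuclear receptor. ARC is instead a synaptic protein that controls the internalization of AMPA receptors.

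All 10 are protein-coding genes. In the GENCODE annotation of mm10, with the strand in parentheses, the AP-1 genes were Fos at chr12:85473890-85477273 (plus), Fosb at chr7:19302696-19310051 (minus), Fosl2 at chr5:32135801-32157842 (plus) and Junb at chr8:84974484-84978718 (minus). The others with a position given here were Egr2 at chr10:67535475-67542188 (plus), Egr4 at chr6:85511121-85513589 (minus), Npas4 at chr19:4984355-4990316 (minus), Nr4a1 at chr15:101254269-101274795 (plus) and Arc at chr15:74669083-74672570 (minus). RefSeq lists a longer Npas4 (chr19:4984353-5003439) and a shorter Junb (chr8:84976909-84978748), and which extents were counted was not checked here. Promoter windows, from 250 bases before to 50 bases after an annotated start, were listed by RefSeq (GRCm38.p6) for 8 of the 10 members, all but Arc and Egr1. The core of the cAMP response element, TGACG on either strand, was in a window of 7 of these 8 genes (Fos, Fosb, Junb, Egr2, Egr4, Npas4 and Nr4a1) and of 23% of all 27025 genes with a window. The full palindrome TGACGTCA was in none of the 8 and in 2.03% of all genes. The EGR motif GCGNGGGCG was in 3 of the 8 (Fosb, Fosl2 and Nr4a1) and in 6.27% of all genes. A serum response element core (the CArG box) was found for Egr2 alone, against 1.81% of all genes. Egr2 had several windows and each other member a single window. Sites farther than 250 bases before a start were not searched for any gene. The TATA box letters TATAAA were found for Fos and Junb, against 15.7%. The match began at base -33 from the annotated start in Fos and at base 1, after the start, in Junb. Neither the AP-1 motif TGANTCA (8.97% of all genes) nor the NR4A motif AAAGGTCA (1.7%) was in any member window. Every motif was searched on both strands, and the shorter core also lies within each full palindrome. The 250 bases before the start are shown for Fos and Fosb, which stood highest above sham, and for Npas4 and Nr4a1, which fell to or below sham levels in some SE libraries, with TGACG, GCGNGGGCG and TATAAA matches in capitals:
Fos (chr12:85473640-85473889, plus strand): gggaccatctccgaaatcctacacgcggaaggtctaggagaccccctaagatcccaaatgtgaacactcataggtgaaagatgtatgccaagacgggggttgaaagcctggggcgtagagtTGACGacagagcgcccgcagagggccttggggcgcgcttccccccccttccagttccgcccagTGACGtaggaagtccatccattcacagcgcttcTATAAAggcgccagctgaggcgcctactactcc
Fosb (chr7:19310046-19310295, minus strand): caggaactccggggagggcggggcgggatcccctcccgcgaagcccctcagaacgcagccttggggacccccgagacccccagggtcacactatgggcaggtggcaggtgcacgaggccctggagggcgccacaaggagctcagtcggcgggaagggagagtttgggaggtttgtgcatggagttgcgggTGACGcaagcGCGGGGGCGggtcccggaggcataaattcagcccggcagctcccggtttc
Npas4 (chr19:4989972-4990221, minus strand): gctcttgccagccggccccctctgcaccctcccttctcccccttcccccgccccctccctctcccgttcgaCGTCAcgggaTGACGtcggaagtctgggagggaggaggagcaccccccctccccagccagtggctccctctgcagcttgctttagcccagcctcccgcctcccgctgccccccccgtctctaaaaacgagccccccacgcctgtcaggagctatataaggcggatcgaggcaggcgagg
Nr4a1 (chr15:101266596-101266845, plus strand): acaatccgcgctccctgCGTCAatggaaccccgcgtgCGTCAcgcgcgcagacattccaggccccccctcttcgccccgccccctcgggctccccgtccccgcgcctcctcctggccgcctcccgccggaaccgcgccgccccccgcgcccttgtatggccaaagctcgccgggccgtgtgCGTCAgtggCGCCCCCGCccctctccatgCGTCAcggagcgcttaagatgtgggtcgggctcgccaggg

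Fos held 2 copies of the TGACG core and a TATAAA match, Fosb 1 copy of the core beside an EGR motif, Npas4 2 copies close together, and Nr4a1 4 copies and an EGR motif. These matches describe the sequence only. No binding was measured in these samples.

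Depth was 59659977 to 84354243 counts per library, and single members were counted 29 to 33554 times in a library. These features of single libraries bear on the values below. SE-WT replicate 3 and SE-cKO replicate 3 carry titles of a different style from the other 11 libraries, and their mitochondrial rRNA shares were 4.83% and 3.92%, beside 0.486% to 1.66% elsewhere. Markers of striatal neurons summed to 2426 CPM (counts scaled to library size) in SE-WT replicate 2 and to 101.7 to 202.8 CPM elsewhere, and markers of thalamic neurons summed to 1117 CPM in sham-cKO replicate 2, 655.6 CPM in SE-WT replicate 3 and 66.2 to 130.1 CPM elsewhere. Xist, a transcript of female cells, was at 180 and 259 CPM in sham-WT replicates 2 and 3 and 307 CPM in sham-cKO replicate 3. It was at 408 CPM in SE-WT replicate 2, 491 and 329 CPM in SE-cKO replicates 2 and 3, and 0 to 3 CPM elsewhere. The part of sex in the members' levels was not tested beyond fits with the Xist level as a covariate. Granule and general neuron markers were detected in every library. Lin28a itself was counted 0 times in 12 libraries and 3 times in SE-WT replicate 3, so it could not check the genotype labels.

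Within sham hippocampi the members lay at modest levels. Per length, as TPM (counts scaled to gene length and library size) over the 7 sham libraries, Arc was highest with a median of 40.8 TPM, followed by Junb (33.4), Nr4a1 (11.5), Egr1 (11.1), Fosl2 (7.91), Fos (6.80), Npas4 (3.05), Egr4 (1.61), Egr2 (0.836) and Fosb (0.827). Arc stood above Junb, Junb above Nr4a1, Fos above Npas4 and Egr4 above Egr2 in 7 of 7 sham libraries. The order of Fosl2 and Fos held in 3 of 7, and that of Egr2 and Fosb in 2 of 7, so these neighbours were not separated. In the 6 SE libraries the median of Fos was 29.4 TPM, behind Junb (52.5 TPM) and Arc (37.8 TPM), with Egr1 at 18.7, Nr4a1 at 15.4, Npas4 at 10.6, Fosl2 at 9.39, Fosb at 3.58, Egr4 at 2.17 and Egr2 at 1.33 TPM. Of neighbours in that order, Fos exceeded Egr1, and Fosl2 exceeded Fosb, in 6 of 6 SE libraries, while Junb exceeded Arc in 4 of 6. The TPM of Npas4 did not follow its counts between libraries, so its place in both orders is uncertain.

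Fos was the member most steadily above sham after SE. Its level was 17.3, 10.8 and 6.91 CPM in the sham-WT libraries (replicates 1 to 3) and 6.70, 7.74, 15.8 and 19.8 CPM in the sham-cKO libraries (replicates 1 to 4). After SE it was 63.7, 20.6 and 91.8 CPM in SE-WT and 30.0, 32.0 and 142.3 CPM in SE-cKO. The lowest SE library, SE-WT replicate 2, lay just above the highest sham library, so all 6 SE libraries were above all 7 sham libraries, as were 8.2% of all genes. The means were 58.7 ± 35.9 CPM (SD, n = 3) in SE-WT against 11.7 ± 5.27 CPM (n = 3) in sham-WT, and 68.1 ± 64.3 CPM (n = 3) in SE-cKO against 12.5 ± 6.34 CPM (n = 4) in sham-cKO. The log2 fold change was 2.32 ± 0.56 (SE of the estimate) in WT mice, with an edgeR adjusted p of 0.0636, and 2.48 ± 0.61 in LIN28A-cKO mice, with an adjusted p of 0.0197. Fos therefore passed the threshold of 0.05 in LIN28A-cKO mice and missed it in WT mice, at changes of like size.

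Fosb, whose stable splice form ΔFOSB builds up with repeated activity, followed Fos across the libraries at a lower level. It was at 4.57, 1.57 and 1.84 CPM in sham-WT and at 2.18, 1.24, 2.25 and 3.55 CPM in sham-cKO. In SE-WT it was at 14.7, 3.97 and 27.8 CPM, and in SE-cKO at 4.19, 5.98 and 61.6 CPM. SE-cKO libraries did not overlap with sham-cKO libraries, whereas SE-WT replicate 2 lay below sham-WT replicate 1. The log2 fold change was 2.52 ± 0.73 in WT mice (edgeR adjusted p = 0.102) and 3.40 ± 0.88 in LIN28A-cKO mice (adjusted p = 0.0246).

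The remaining AP-1 members moved less. Junb, a FOS partner, was at 55.3, 47.8 and 41.8 CPM in sham-WT and 31.4, 22.8, 49.4 and 49.5 CPM in sham-cKO, against 82.9, 30.8 and 164.4 CPM in SE-WT and 64.8, 48.7 and 129.6 CPM in SE-cKO. In each genotype a single SE library lay within the sham range. Its log2 fold change was 0.93 ± 0.51 in WT (edgeR adjusted p = 0.358) and 1.12 ± 0.37 in LIN28A-cKO mice (adjusted p = 0.0591). Exons of Junb and of Prdx2 on the opposite strand share up to 173 bases in the GENCODE annotation. RefSeq lists a shorter Junb, and which extent was counted was not checked here. The strand setting of the counting was not given in the sources used here. Whether the Junb count includes reads of its neighbour is therefore not known.

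Fosl2, which encodes FRA2, was at 32.8 to 38.4 CPM in sham-WT and at 39.0, 13.7, 33.2 and 41.2 CPM in sham-cKO. After SE it was at 36.3, 12.5 and 76.97 CPM in SE-WT and 44.2, 41.0 and 193.9 CPM in SE-cKO. The lowest value in each treatment came from the library rich in striatal markers (SE-WT replicate 2) and a library rich in thalamic markers (sham-cKO replicate 2). SE-WT replicate 3, also rich in thalamic markers (655.6 CPM), went the other way, with only SE-cKO replicate 3 above it. The part of those tissues in the values was not tested. The log2 fold change of Fosl2 was 0.26 ± 0.54 in WT (edgeR adjusted p = 0.840) and 1.58 ± 0.57 in LIN28A-cKO mice (adjusted p = 0.0818).

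The zinc finger factors varied widely between SE mice. Egr1 was at 38.9, 25.6 and 20.5 CPM in sham-WT and 15.1, 11.9, 30.1 and 50.3 CPM in sham-cKO, against 67.5, 23.7 and 59.3 CPM in SE-WT and 18.9, 17.3 and 90.4 CPM in SE-cKO. SE-cKO replicates 1 and 2 thus lay inside the sham range, while SE-cKO replicate 3 was the highest of all 13. Egr2 reached 13.6 CPM in SE-WT replicate 3 and 20.1 CPM in SE-cKO replicate 3, was at 3.59 CPM in SE-WT replicate 1, and was at 0.654 to 2.47 CPM in the other 3 SE libraries against 0.454 to 2.76 CPM in sham. Egr4 reached 24.0 CPM in SE-WT replicate 3 and 11.6 CPM in SE-cKO replicate 3, against 1.82 to 3.90 CPM in sham, and lay below the sham range in SE-cKO replicate 2 (0.911 CPM). In WT mice the log2 fold changes were 0.82 ± 0.40 for Egr1, 1.79 ± 0.88 for Egr2 and 1.97 ± 0.80 for Egr4, with edgeR adjusted p of 0.308, 0.305 and 0.220. In LIN28A-cKO mice they were 0.69 ± 0.67, 2.27 ± 1.03 and 0.84 ± 0.71, with adjusted p of 0.525, 0.154 and 0.458.

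Npas4 had the widest range of any member among SE mice. In CPM it was steady in sham, at 11.2, 8.62 and 9.31 CPM in sham-WT and 9.19, 6.39, 9.08 and 11.96 CPM in sham-cKO. In SE-WT it was at 67.9, 6.81 and 45.6 CPM, and in SE-cKO at 2.64, 11.2 and 82.6 CPM. 3 SE libraries were well above every sham library, 2 were inside the sham range, and SE-cKO replicate 1 was below it. Highest and lowest SE libraries differed 31.3-fold in CPM, against 1.87-fold over the 7 sham libraries. The deposited TPM of Npas4 was less steady in sham, at 0.513 to 3.72 TPM, and did not follow the counts. In sham-WT replicate 1 there were 895 counts and 0.757 TPM, and in sham-WT replicate 3 547 counts and 3.10 TPM. The reason was not tested. The log2 fold change was 2.04 ± 0.70 in WT (edgeR adjusted p = 0.154) and 1.84 ± 0.88 in LIN28A-cKO mice (adjusted p = 0.177).

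Nr4a1 was split in the same libraries but around the sham level. It was at 32.3, 22.7 and 18.5 CPM in sham-WT, 16.2, 12.8, 24.2 and 43.1 CPM in sham-cKO, 50.03, 11.5 and 56.2 CPM in SE-WT, and 9.81, 9.86 and 73.0 CPM in SE-cKO. 3 SE libraries exceeded all sham libraries and the other 3 lay below all of them. Its log2 fold change was 0.67 ± 0.53 in WT (edgeR adjusted p = 0.533) and 0.39 ± 0.72 in LIN28A-cKO mice (adjusted p = 0.761).

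Arc, the synaptic effector of the group, was at 119.1, 93.7 and 79.0 CPM in sham-WT and 55.0, 52.6, 93.5 and 144 CPM in sham-cKO. After SE it was at 112.3, 27.4 and 308.4 CPM in SE-WT and 46.8, 66.5 and 492.8 CPM in SE-cKO. Only the SE replicate 3 of each genotype was above the sham range, and SE-WT replicate 2 and SE-cKO replicate 1 were below it. The log2 fold change was 0.60 ± 0.71 in WT (edgeR adjusted p = 0.694) and 1.25 ± 0.75 in LIN28A-cKO mice (adjusted p = 0.283).

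**Figure D1:**
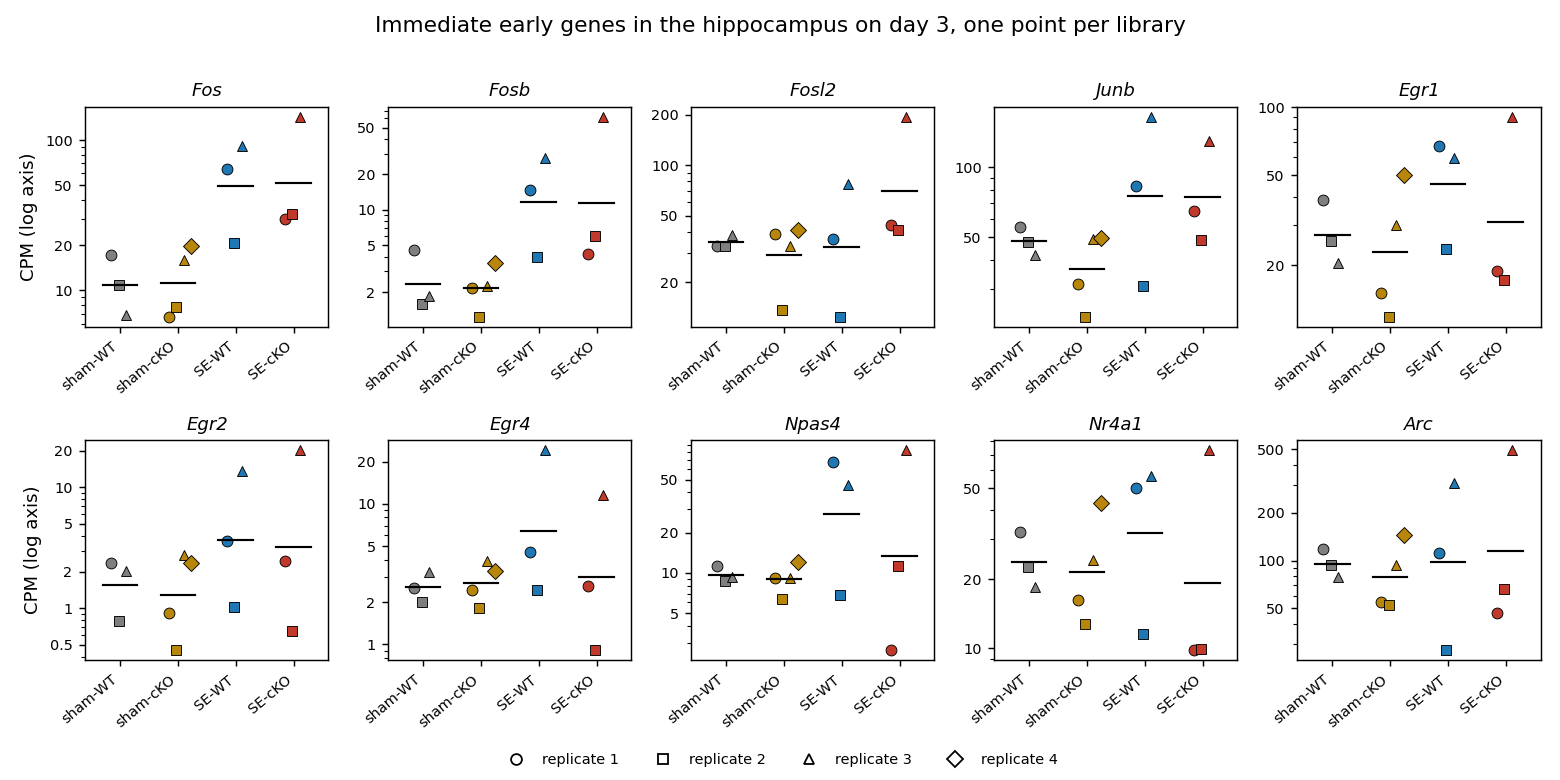
Level of each member in CPM (log axis) in the 13 libraries by group, 1 point per library with the replicate number as its shape and a bar at the geometric mean. SE replicate 3 (triangles) is the highest SE library of its genotype in every panel but Egr1 and Npas4 of SE-WT, and Fos alone has all SE points above all sham points.

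Gene by gene, 0 of the 10 members passed the adjusted threshold in SE-WT against sham-WT with edgeR, in either direction, where 4.57% of the 20803 genes tested were called higher and 0.832% lower. At an unadjusted p under 0.05 there were 4 (Fos, Fosb, Egr4 and Npas4), beside 20.8% of all genes. DESeq2 called 3 (Fos, Fosb and Egr4), beside 12.9%, and limma voom with quality weights called 2 (Fos and Fosb), beside 10.1%. In SE-cKO against sham-cKO edgeR called 2 members higher (Fos and Fosb) and 0 lower, where 13.8% of 21307 genes were called higher and 8.92% lower. DESeq2 called Fos and Junb there and gave no adjusted p for Fosb and Arc, beside 29.4% of genes called, and limma voom called Fos alone, beside 23.6%. The estimate was positive for 10 of 10 members in both comparisons, with a median log2 fold change of 1.36 in WT and 1.42 in LIN28A-cKO mice, beside medians of 0.015 and -0.001 over all genes tested. Groups did not overlap for 1 member in WT mice (Fos), beside 16% of all genes higher without overlap, and for 2 in LIN28A-cKO mice (Fos and Fosb), beside 17.9%. For edgeR adjusted calls higher and for groups without overlap, the members' counts were below the shares of all genes in WT mice. In LIN28A-cKO mice they were near those shares by both measures. In WT mice they were above the shares at the unadjusted threshold, with DESeq2 and with limma voom. With DESeq2 and limma voom in LIN28A-cKO mice they were below them.

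Over both genotypes, a contrast chosen after the data were seen, the mean SE effect was called for 4 of 10 members, all higher, beside 15.7% of 22596 genes. These were Fos (log2 fold change 2.43 ± 0.47, edgeR adjusted p = 0.00215), Fosb (2.99 ± 0.66, adjusted p = 0.00479), Junb (1.06 ± 0.35, adjusted p = 0.0407) and Npas4 (1.97 ± 0.65, adjusted p = 0.0421). Egr2 (2.06 ± 0.77, adjusted p = 0.0705), Egr4 (1.44 ± 0.59, adjusted p = 0.0957), Fosl2 (0.95 ± 0.45, adjusted p = 0.147), Egr1 (0.78 ± 0.45, adjusted p = 0.246), Arc (0.96 ± 0.59, adjusted p = 0.274) and Nr4a1 (0.56 ± 0.52, adjusted p = 0.492) did not pass. Fos and Fosb were called under all 22 other settings tried for this contrast, with log2 fold changes of 1.64 to 2.62 and 1.53 to 3.31, whereas Junb was called under 10, Npas4 under 5, Egr2 under 4, Egr4 under 3 and the other members under 0.

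The libraries that decided these calls were few. Without SE-cKO replicate 3, no member was called in LIN28A-cKO mice: Fos was at 1.40 ± 0.42 on the log2 scale (edgeR adjusted p = 0.0545) and Fosb at 1.23 ± 0.40 (adjusted p = 0.0674), and the estimates of Arc (-0.52), Egr1 (-0.48), Egr4 (-0.61), Npas4 (-0.32) and Nr4a1 (-1.20) turned negative. Without sham-cKO replicate 1 the count also went to 0, and without any other single sham-cKO library it was 1 (Fos). In WT mice, leaving out SE-WT replicate 2 raised the count from 0 to 5 (Fos, Fosb, Junb, Npas4 and Nr4a1), with Npas4 at 2.55 ± 0.22 (adjusted p = 0.00237). Without SE-WT replicate 3 the estimates of Fosl2 (-0.49) and Arc (-0.45) turned negative and the count stayed at 0. With both replicate 3 libraries left out, the averaged contrast kept Fos (1.64 ± 0.38, adjusted p = 0.00973) and Fosb (1.53 ± 0.42, adjusted p = 0.0211) alone. The shares of all genes called in these refits were not set beside the counts. Whether the counts changed more for the members than for other genes was therefore not tested.

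**Figure D2:**
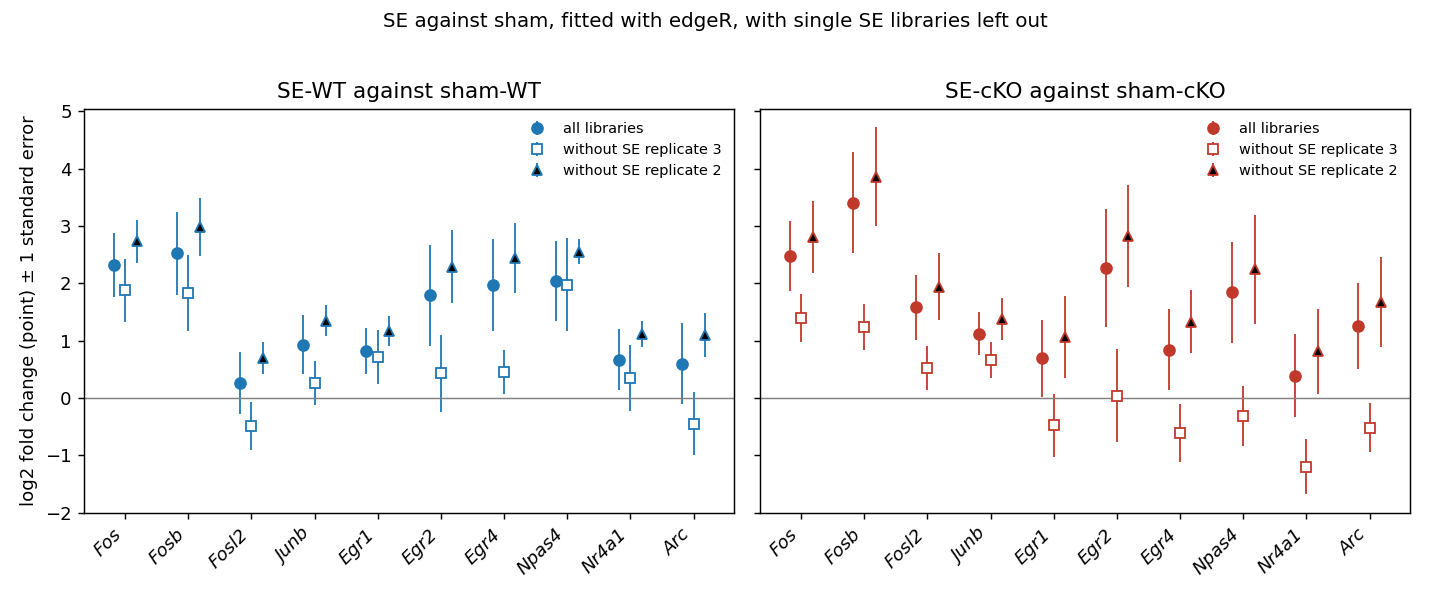
Log2 fold change of each member (points) with 1 standard error (bars) for SE against sham in WT (left) and LIN28A-cKO mice (right), from all libraries, without SE replicate 3 and without SE replicate 2. Fos and Fosb stay above 0 in all 3 fits of both panels, whereas Arc lies below 0 without replicate 3 in both.

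Library by library, SE mice fell into unlike states for the same 10 genes. In SE-cKO replicate 3 all 10 members were above all 7 sham libraries, where 28.6% of all genes were, and 0 were below, where 26.3% of all genes were. SE-WT replicate 3 likewise had 10 above and 0 below, beside 26.3% and 20% of all genes. SE-WT replicate 1 had 8 above (all but Fosl2 and Arc) and 0 below, beside 22.7% and 21.6%. The other 3 SE libraries did not share this. SE-WT replicate 2 had 1 member above (Fos) and 3 below (Fosl2, Arc and Nr4a1), beside 26.1% and 22.9% of all genes. SE-cKO replicate 1 had 3 above (Fos, Fosl2 and Junb) and 3 below (Arc, Npas4 and Nr4a1), beside 25.7% and 29.4%. SE-cKO replicate 2 had 2 above (Fos and Fosb) and 2 below (Egr4 and Nr4a1), beside 27.4% and 29.3%. The median member stood 2.57, 2.15 and 1.24 log2 units above the sham mean in the first 3 of these libraries, and at -0.42, 0.23 and -0.06 in the others.

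**Figure D3:**
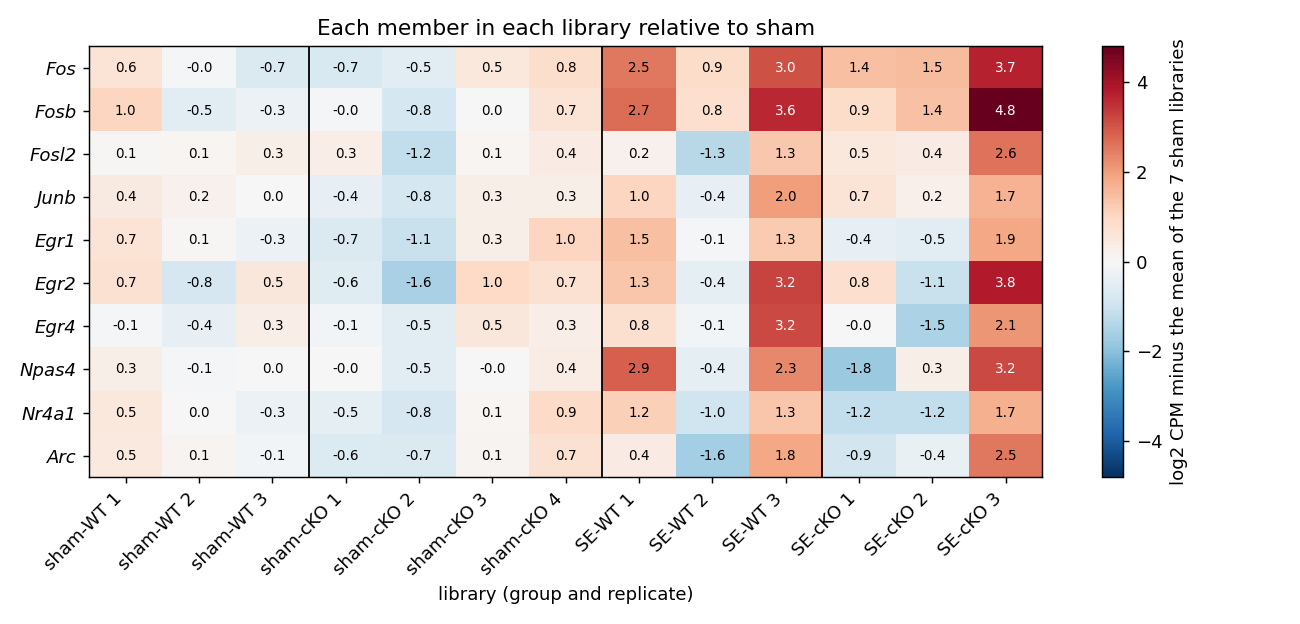
Difference of each member's log2 CPM in each library from the mean of the 7 sham libraries, with libraries in columns and red for higher. The columns of SE-WT 1, SE-WT 3 and SE-cKO 3 are red for nearly every gene, and those of SE-WT 2, SE-cKO 1 and SE-cKO 2 are red for Fos and Fosb and blue for Nr4a1 and Arc.

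SE-cKO replicate 3 was the highest of the 13 libraries for 8 members and SE-WT replicate 3 for the other 2 (Junb and Egr4). Both carry the unlike titles and the high mitochondrial rRNA share, and both are SE libraries. Within these libraries what the titles stand for, SE and the single mouse cannot be told apart. The other SE libraries have titles like the rest, and the fits without both replicate 3 libraries rest on those SE libraries alone. SE-WT replicate 1, with a title like the rest, had 8 members above sham and the next highest mitochondrial rRNA share (1.66%). With the log2 share of mitochondrial rRNA as a covariate, added after the data were seen, Fos was at 1.45 ± 0.31 in WT (edgeR adjusted p = 0.0477) and at 1.98 ± 0.42 in LIN28A-cKO mice (adjusted p = 0.0142), and Fosb at 1.34 ± 0.46 (adjusted p = 0.146) and 2.27 ± 0.44 (adjusted p = 0.00967). Under the same covariate Arc was at -1.01 ± 0.30 in WT (adjusted p = 0.106) and 0.38 ± 0.44 in LIN28A-cKO mice (adjusted p = 0.591). The part of mitochondrial RNA in the members' levels was not tested beyond this fit.

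**Figure D4:**
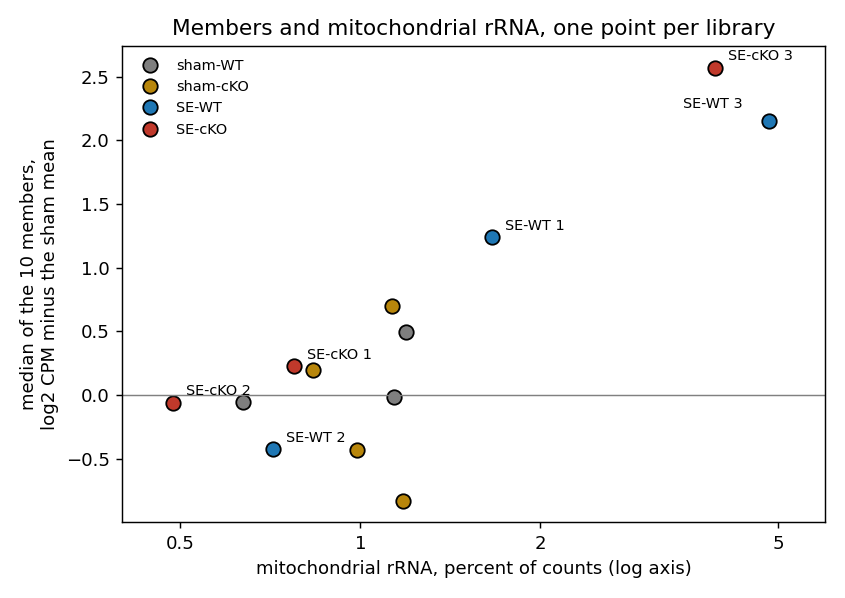
Median over the 10 members of log2 CPM minus the sham mean (vertical axis) against the share of counts in mitochondrial rRNA (horizontal log axis), 1 point per library coloured by group, SE libraries named. SE-WT 3 and SE-cKO 3 stand alone at 4.83% and 3.92% with members 2.15 and 2.57 above sham, while the other libraries lie at 1.66% or less.

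The spread between mice was itself larger for the members than for other genes. The median standard deviation of log2 CPM over the members was 0.38 in sham-WT, 0.71 in sham-cKO, 1.37 in SE-WT and 1.75 in SE-cKO. Over the 11823 genes within the members' range of mean level it was 0.16, 0.17, 0.26 and 0.28. The members were thus more variable in sham hippocampi too, and the lowest member SD in SE-cKO (0.73, for Junb) exceeded the median of like genes. No test was made of these differences.

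Genotype made no difference that passed a test. In SE-cKO against SE-WT 0 of 10 members were called by edgeR, at an unadjusted p under 0.05 or adjusted, and 0 by DESeq2 and by limma voom. Over all 21126 genes edgeR called 0%, with 2046 at an unadjusted p under 0.05, and DESeq2 called 535. Estimates were positive for 5 members and negative for 5, from 1.18 ± 0.78 for Fosl2 to -1.01 ± 1.06 for Egr4, and the standard error exceeded the estimate for every member but Fosl2. No member was higher in SE-cKO without overlap, beside 7.65% of all genes. Between the replicate 3 libraries, SE-cKO exceeded SE-WT for 8 members, by 1.30-fold (Nr4a1) to 2.52-fold (Fosl2), and was lower for Junb (0.788 of the SE-WT level) and Egr4 (0.482). Between the means of replicates 1 and 2, SE-cKO was lower for 9 members, at 0.186 (Npas4) to 0.997 (Junb) of SE-WT, and higher for Fosl2 (1.75-fold). The direction for 7 members thus differed between the libraries of each title style.

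In sham-cKO against sham-WT 0 of 10 members were called by edgeR, at an unadjusted p under 0.05 or adjusted, and 0 by DESeq2 and limma voom. Estimates ran from -0.32 ± 0.27 (Junb) to 0.16 ± 0.30 (Egr4). Of all 20785 genes 0% were called by edgeR, with 1152 at an unadjusted p under 0.05, and 17 were called by DESeq2. No member was higher without overlap, beside 3.69% of all genes. The interaction of genotype and SE was called for 0 of 10 members by edgeR, adjusted or unadjusted, and by DESeq2 and limma voom. Estimates ran from -1.14 ± 1.17 (Egr4) to 1.32 ± 0.89 (Fosl2). Of all 22596 genes edgeR called 36 (0.159%), with 2834 at an unadjusted p under 0.05, limma voom called 36 and DESeq2 called 720. The call of Fos and Fosb in LIN28A-cKO mice alone was therefore not accompanied by a difference between genotypes that passed the test.

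Other genes of the same programme were read from lists chosen by function. Beside the list counts here and in the next paragraphs, edgeR called 4.57% of all genes higher and 0.832% lower in WT mice. In LIN28A-cKO mice it called 13.8% higher and 8.92% lower. Of 36 other immediate early genes, 3 were called higher and 0 lower in WT mice and 15 and 0 in LIN28A-cKO mice, with median log2 fold changes of 0.43 and 0.82. Those of smallest p were Ccn1, a matricellular protein (2.14 ± 0.33 in WT, edgeR adjusted p = 0.0150, and 4.04 ± 0.34 in LIN28A-cKO mice, adjusted p = 0.000114), Zfp36, which promotes decay of AU-rich mRNAs (2.75 ± 0.55, adjusted p = 0.0355, and 3.27 ± 0.55, adjusted p = 0.00365), and Gadd45g, a stress-induced growth arrest gene (1.39 ± 0.26, adjusted p = 0.0277, and 2.47 ± 0.49, adjusted p = 0.00825). Ier3, Trib1 and Ier5l were called in LIN28A-cKO mice (1.496, 2.15 and 1.58) and missed the threshold in WT mice (1.47, 1.28 and 1.24). Like Fos and unlike Nr4a1 or Arc, Ccn1 was above every sham library in all 6 SE libraries, at 10.2 to 74.8 CPM against 2.02 to 4.73 CPM. The same held for 8.2% of all genes, and Ccn1 was named for its small p in these same comparisons.

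Of 12 tested AP-1 and small Maf factors outside the 10, 2 were called higher and 0 lower in WT mice, and 4 higher and 1 lower in LIN28A-cKO mice. Atf3, a stress-induced AP-1 partner, was at 6.03 to 66.7 CPM in SE libraries against 0.809 to 1.17 CPM in sham, and rose by 3.09 ± 0.29 in WT (edgeR adjusted p = 0.00270) and 5.57 ± 0.56 in LIN28A-cKO mice (adjusted p = 0.000259). Maff, a small Maf factor, rose by 3.68 ± 0.51 (adjusted p = 0.00838) and 3.48 ± 0.45 (adjusted p = 0.000992). Jun, the main partner of FOS, was called in LIN28A-cKO mice (1.43 ± 0.30, adjusted p = 0.0105, against 0.60 ± 0.45 and adjusted p = 0.502 in WT). Atf2 fell by 0.51 ± 0.13 on the log2 scale in LIN28A-cKO mice (adjusted p = 0.0201). Batf and Batf2, of lymphoid and myeloid cells, stayed at or below 1.45 CPM and were called in neither comparison.

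Of 16 delayed activity-regulated genes, which follow the immediate early factors, 4 were called higher in WT and 11 in LIN28A-cKO mice, and 0 lower in either, with median log2 fold changes of 0.83 and 1.80. Timp1, an inhibitor of metalloproteinases also made by reactive astrocytes, was at 11.4 to 53.9 CPM after SE against 0 to 0.298 CPM in sham. Inhba, the activin A subunit, rose by 2.03 ± 0.27 in WT (edgeR adjusted p = 0.00741) and 5.04 ± 1.03 in LIN28A-cKO mice (adjusted p = 0.00903), where SE-cKO replicate 3 alone was at 467.6 CPM and the other SE libraries at 11.7 to 61.2 CPM. Plat, tissue plasminogen activator, rose by 0.68 ± 0.11 (adjusted p = 0.0179) and 1.16 ± 0.16 (adjusted p = 0.00143). Rgs2, a regulator of G protein signalling, rose by 1.33 ± 0.29 in WT (adjusted p = 0.0454) and was at 0.66 ± 0.21 in LIN28A-cKO mice (adjusted p = 0.0562). The neuropeptide genes Npy (2.31 ± 0.28, adjusted p = 0.000699) and Penk (2.94 ± 0.38, adjusted p = 0.00093) rose in LIN28A-cKO mice and missed the threshold in WT mice, at 0.82 ± 0.23 and 4.17 ± 1.05, where Penk was at 413.2 CPM in SE-WT replicate 2, the library rich in striatal markers.

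Of 27 upstream factors and kinases, 2 were called higher and 0 lower in WT mice and 3 higher and 6 lower in LIN28A-cKO mice, with medians of 0.07 and -0.17. Elk3, an ETS factor of the serum response, rose by 1.18 ± 0.17 (edgeR adjusted p = 0.0115) and 2.07 ± 0.21 (adjusted p = 0.000297), and Rps6ka1, which encodes the kinase RSK1, by 1.37 ± 0.24 (adjusted p = 0.0211) and 1.93 ± 0.23 (adjusted p = 0.000567). Camk4 and Camk2b, calcium-dependent kinases of neurons, decreased by 1.30 ± 0.23 (adjusted p = 0.00447) and 0.88 ± 0.17 (adjusted p = 0.00695) in LIN28A-cKO mice, against 0.09 ± 0.28 and -0.56 ± 0.23 in WT mice, neither of which passed. Rps6ka3, which encodes the kinase RSK2, passed in neither (0.68 ± 0.21 in WT, adjusted p = 0.119).

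Summed microglia and reactive astrocyte markers were above sham in all 6 SE libraries, and 3 neuronal lists were higher in the SE libraries with high members than in the other SE libraries. All 8 microglia markers were called higher in both genotypes, and 6 of 7 reactive astrocyte markers in WT and 7 of 7 in LIN28A-cKO mice. The microglia list summed to 1221 to 2120 CPM in the 6 SE libraries against 350.3 to 398.8 CPM in sham, and the reactive astrocyte list to 3905 to 8071 CPM against 357 to 444 CPM. SE-WT replicate 2, SE-cKO replicate 1 and SE-cKO replicate 2, where most members were near or below sham, had 1519, 2081 and 2120 CPM of microglia markers, against 1593, 1221 and 1358 CPM in the 3 libraries with high members. Of 8 granule cell markers 3 were called lower in WT and 5 in LIN28A-cKO mice, and of 8 general neuron markers 0 and 3. General neuron markers summed to 5325, 5455 and 4713 CPM in the libraries with high members (SE-WT replicates 1 and 3 and SE-cKO replicate 3) and to 3926, 3745 and 3280 CPM in the other 3, against 5454 to 6446 CPM in sham. CA pyramidal cell markers summed to 341, 502.3 and 398.1 CPM in the former and 259.7, 273.5 and 257.7 CPM in the latter, against 382 to 574.3 CPM in sham, and neocortical neuron markers to 162.2, 132.8 and 84.8 CPM and to 46.5, 82.8 and 57.1 CPM, against 66.8 to 123.2 CPM. Both lists were thus higher in each of the libraries with high members than in any of the other 3, as general neuron markers were. For neocortical markers the margin was small (84.8 against 82.8 CPM). Granule cell markers were not, at 208.8, 393.9 and 335.2 CPM against 328.7, 341.8 and 419.6 CPM. Nor were striatal markers (176, 175.3 and 132.1 against 2426, 120.2 and 101.7 CPM) or thalamic markers (81.1, 655.6 and 130.1 against 73.5, 82.3 and 72.8 CPM). The libraries were split by the members' own levels. The part of neuronal content in the members' levels was not tested. In bulk tissue, fewer neurons and less of a transcript per neuron cannot be told apart.

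**Figure D5:**
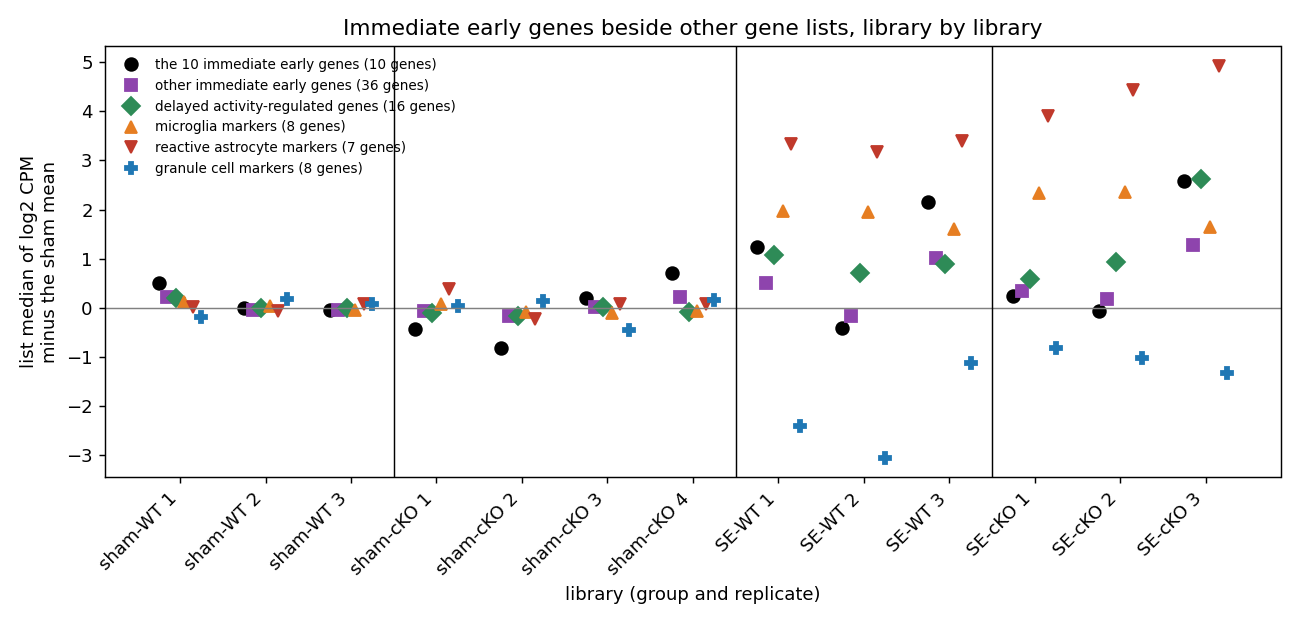
Median over each gene list of log2 CPM minus the mean of the 7 sham libraries (vertical axis) in every library (horizontal axis), 1 symbol per list. Glial lists are above sham in all 6 SE libraries, whereas the 10 immediate early genes are clearly above it in SE-WT 1, SE-WT 3 and SE-cKO 3.

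Of 14286 other genes with a mean of 1 CPM or more, 5 followed the median member most closely over the 13 libraries, by the root mean square difference of their log2 CPM from sham. These were Rara, the retinoic acid receptor alpha (0.47), Gadd45b, an activity- and stress-induced gene (0.51), ND4 (0.52), Arl4d, a small GTPase (0.52), and ND2 (0.53). The members themselves lay at 0.33 (Junb) to 1.03 (Fosb) from that median. ND4 and ND2 are encoded by mitochondrial DNA, and their levels of 349.1 and 162.7 CPM in SE-WT replicate 3 and 353.1 and 164.8 CPM in SE-cKO replicate 3 stood above the 71.6 to 128.2 and 18.2 to 36.9 CPM of the other libraries, as the mitochondrial rRNA share did. Rara was at 14.9 and 23.5 CPM in these libraries, at 11.2 CPM in SE-WT replicate 1 and at 4.68 to 7.83 CPM elsewhere.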

How the data were processed

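Hippocampal RNA of 13 mice was sequenced from TruSeq stranded total RNA libraries. According to the study's methods and the submitters' processing notes, reads were aligned to mm10 with HISAT2 2.1.0 and summarised with StringTie 2.1.3b, and the notes also name Trimmomatic. The authors deposited a read count and a TPM value per gene and library, and both are used as deposited, the counts for tests and the TPM for comparing levels between genes. Groups were taken from the genotype and treatment labels, and replicates are separate mice per the labels. Replicates differed beyond sampling noise in every pair (variance 47.8 to 440 times that of sampling).

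Counts were scaled by TMM, filtered with filterByExpr (10 counts, 15 in total) and tested with the quasi-likelihood test of edgeR 4.0.16 (R 4.3.3) on the libraries of each comparison, with Benjamini-Hochberg adjustment at 0.05. The interaction and the averaged SE effect used all 13 libraries. CPM were computed on TMM-scaled library sizes, and log2 CPM with a prior count of 2. Alternatives included DESeq2 1.42.0 and limma 3.58.1. Scripts were tested on simulated data. Same-numbered replicates did not deviate together in the same way in every pair (correlations -0.08 to 0.25), so numbers were not used as pairs. The 10 members and the gene lists were chosen with earlier results of these data known. All members are named, with up to 4 genes of smallest p per other list and comparison, of which 1 is not reported here. Deposited FPKM columns were not used.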

Additional observations from a re-analysis of the deposited data

How the results depend on the processing

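The count of members called depended on the setting in the comparisons of SE with sham and in no other. Shares of all genes called were not set beside the counts in this paragraph, and they too depend on the setting. In SE-WT against sham-WT edgeR called 1124 of 20803 genes and DESeq2 2692. A change in a count below is therefore not a result about the members alone. In SE-WT against sham-WT it was 0 by edgeR, 3 with DESeq2, 2 with limma voom and quality weights, 2 with the Xist level as a covariate, 1 with mitochondrial rRNA as a covariate, 3 once libraries rich in striatal or thalamic markers were dropped (which leaves SE-WT with 1 mouse, assumed to vary like the sham-WT mice), and 4 when a call needed an unadjusted p under 0.05 and a 2-fold change. In SE-cKO against sham-cKO it was 2, and became 0 without the low-count filter, with the Xist covariate and without both unlike-titled libraries, 1 with limma voom and without the library rich in thalamic markers, and 4 at the unadjusted threshold. For SE averaged over both genotypes it was 4, and became 2 without the low-count filter, with the Xist covariate, with the mitochondrial rRNA covariate and without both unlike-titled libraries. Leaving out single libraries gave 0 to 5 in WT, 0 to 3 in LIN28A-cKO mice and 2 to 6 for the average. The replicate block, RLE size factors and 1 fit of all 4 groups left every count within 1.5 times, and with the replicate block they were 0 in WT, 2 in LIN28A-cKO mice and 4 for the average, and 0 for the genotype comparisons and the interaction. The block called other members, though, with Fos and Junb in LIN28A-cKO mice (Fosb at an edgeR adjusted p of 0.0834) and Egr2 in place of Npas4 (adjusted p = 0.121) for the average. Same-numbered libraries did not deviate together in every pair, so the numbers are names only. The cause of these changes was not tested.

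Of 870 refitted member values, 43 turned in sign and moved from the reported value by more than its standard error, and 87 more turned in sign with a smaller move. Several of the turned values lie close to 0. For SE-WT against sham-WT these were Fosl2 (-0.62), Arc (-0.74) and Nr4a1 (-0.19) with the Xist covariate, Fosl2 (-0.49) and Arc (-0.45) without both unlike-titled libraries, and Fosl2 (-0.82), Junb (-0.08), Arc (-1.01), Egr2 (-0.02) and Nr4a1 (-0.18) with the mitochondrial covariate. For SE-cKO against sham-cKO they were Egr4 (-0.25) and Nr4a1 (-0.43) with limma voom, Arc (-0.52), Egr1 (-0.48), Egr4 (-0.61), Npas4 (-0.32) and Nr4a1 (-1.20) without both unlike-titled libraries, and Egr4 (-0.04) and Nr4a1 (-0.41) with the mitochondrial covariate. For SE-cKO against SE-WT they were Fosb with limma voom (-0.48) and without both unlike-titled libraries (-0.88), and Egr4 (0.16) once libraries rich in striatal or thalamic markers were dropped, a value that rests on 1 SE-WT mouse. For the interaction they were Fosb with limma voom (-0.54) and without both unlike-titled libraries (-0.61).

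Leaving out single libraries gave these ranges of log2 fold change. In SE-WT against sham-WT they were -0.49 to 0.70 for Fosl2 and -0.45 to 1.10 for Arc. In SE-cKO against sham-cKO they were -0.52 to 1.75 for Arc, -0.48 to 1.18 for Egr1, -0.61 to 1.33 for Egr4, -0.32 to 2.41 for Npas4 and -1.20 to 0.83 for Nr4a1. In SE-cKO against SE-WT they were -0.89 to 0.70 for Fos, -1.58 to 1.37 for Fosb, -0.68 to 0.52 for Junb, -1.37 to 1.54 for Arc, -1.92 to 1.76 for Egr2 and -2.52 to 0.53 for Egr4, and in sham-cKO against sham-WT -0.48 to 0.45 for Fosb. For the interaction they were -1 to 0.62 for Fos, -1.38 to 1.60 for Fosb, -1.21 to 1.73 for Arc, -1.84 to 1.87 for Egr2 and -2.68 to 0.40 for Egr4. Fos and Fosb kept a positive estimate in SE against sham under every setting run. Members were counted 29 times or more in each library, and groups held 3 or 4 mice.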

Other observations

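Ratios between members within a library were a measure chosen after the values were seen, and of 3 ratios 1 separated SE from sham. The ratio of Fos to Nr4a1 CPM was 0.374 to 0.652 in the 7 sham libraries and 1.27, 1.80 and 1.63 in SE-WT and 3.06, 3.25 and 1.95 in SE-cKO replicates 1 to 3. The ratio of Fos to Npas4 was 0.729 to 1.74 in sham and 0.939 to 11.4 after SE, with the highest value in SE-cKO replicate 1. The ratio of Fosb to Fos was 0.142 to 0.325 in sham and 0.139 to 0.433 after SE, so both of these overlapped with sham. The ratios are of counts and do not correct for gene length, and no test was made of them.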
